A study of Rattus norvegicus with 8 samples.

Results

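Among the genes that differed between droplet-rich and droplet-poor rat glia, 25 encode non-collagen matrix proteins, extracellular proteases and their inhibitors, growth factors, morphogens and the receptors of these. They were chosen by name, with 39 patterns of symbols (such as Lam, Mmp, Serpin, Igf, Tgf, Bmp, Wnt and Notch), from the 1187 genes that the authors listed as significant. Pdgfra fits a pattern and was set aside, and so was the name Egfl7. The glia were prepared from rat hippocampus at postnatal day 0 and grown, in what the labels call astrocyte cultures, in medium with 10% fetal bovine serum for 3 to 5 days in vitro. They were stained with Nile red, a dye of neutral lipid, and sorted by fluorescence into glia with many lipid droplets (LD-high, 4 samples) and glia with few (LD-low, 4 samples). Lipid droplets are the organelles that store neutral lipid. Both groups come from the same kind of culture, with no genotype or drug that sets them apart in the labels, and the labels do not say whether samples came from separate animals or cultures.

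The deposited tables give 1 level per gene and group, so no value per sample, no SD and no depth can be shown, and a level is the authors' value for 4 samples together. Levels are read as FPKM, fragments per transcript length and sequenced fragments, the unit that Cuffdiff reports. For the error of a difference there are only the p and q that the authors give, where q is the p adjusted for all genes tested. As the lists hold only genes at q below 0.05, being called is part of the choice of these genes and no finding about them. Absence from the lists means that a gene missed the limit or that the authors had not tested it. In bulk RNA a smaller number of cells of one type cannot be told apart from less RNA per cell. The levels of Gfap, Aqp4 and the glutamate transporters Slc1a2 and Slc1a3, which define astrocytes, are not in the tables of called genes, so the glial label could not be checked against them.

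Matrix proteins form the scaffold outside cells. Laminins build basement membranes, fibulins help to assemble elastic fibres, and metalloproteinases and the plasmin system cut such proteins, with serpins and TIMPs as inhibitors. Growth factors of the TGF-beta superfamily, which includes TGF-beta, activins and BMPs, bind pairs of serine/threonine kinase receptors that switch on SMAD transcription factors. IGF and FGF ligands act through receptor tyrosine kinases, while Notch is a receptor for ligands on the neighbouring cell. In the brain, glia are a known source of many of these factors, among them BMPs, thrombospondins and the chondroitin sulphate proteoglycans.

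Of the 25 genes, 15 were higher and 10 were lower in LD-high glia. For comparison, the authors called 9.14% of the 12981 genes they had tested, 4.92% as higher and 4.22% as lower. The higher genes named here were Igf1, Bmp4, Igfbp7, Inhba, Bmp2, Igf2, Serpinb9, Tgfb2, Tgfbr1, Lamb1, Adamts12, Serpinf1, Fbln5 and Serpine2, from the largest log2 change (2.94) to the smallest (0.72). The lower genes were Mmp24, Fgf11, Spon1, Bmp6, Tgfa, Igfbpl1, Mmp15, Vegfb, Fgfr1 and Notch2, from -2.66 to -0.79. The median log2 change was 1.23 over the higher members, beside 1.13 over all called higher genes, and -1.51 over the lower members, beside -1.40 over all called lower genes. No member was listed at 0 in either group.

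**Figure D1:**
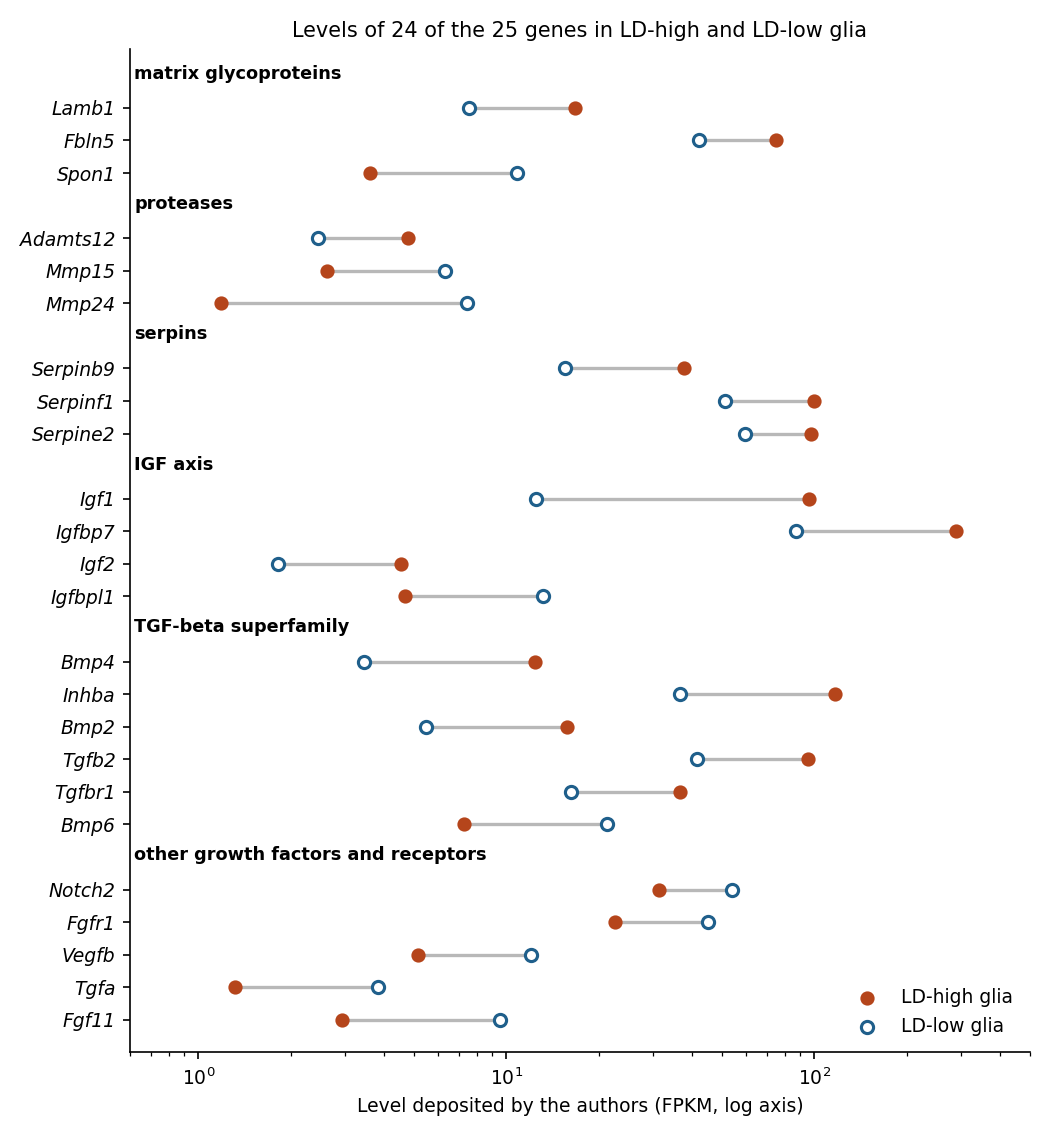
Level of 24 of the 25 genes in LD-high glia (filled) and LD-low glia (open), in FPKM on a log axis, 1 value per group from the authors' tables and without replicate error. Serpins and most IGF and TGF-beta superfamily members lie higher in LD-high glia, with Igf1 at 95.8 against 12.5 FPKM. The 5 other growth factors and receptors, the group left over from these classes, lie lower.

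In LD-high glia the median level of the higher members was above that of all called higher genes. Their levels ran widely, with Igf2 at 4.53 and Igfbp7 at 289 FPKM in LD-high glia. Their median level was 75.1 FPKM in LD-high and 16.3 FPKM in LD-low glia, against 4.14 and 11.4 FPKM for the lower members in the same groups. All called higher genes had medians of 31.8 FPKM in LD-high and 14.1 FPKM in LD-low glia. At 50 FPKM or more stood 8 members in LD-high glia and 5 in LD-low glia. Added over all 25 members, the level was 1263 FPKM in LD-high and 644 FPKM in LD-low glia, a ratio of 1.96. For the sum over all 1187 called genes the ratio was 1.98. Such sums are weighted toward abundant genes. The highest called gene held 24586.5 of the 137893 FPKM summed over called genes in LD-high glia. The 15 higher members held 93.5% of the members' sum in LD-high and 71.5% in LD-low glia. As the members were split by these same levels, a larger share in LD-high glia follows from the split and is no finding.

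Most higher members had small q, while most lower ones lay nearer to the limit. By the authors' deposited table, q was below 0.01 for 12 of the 15 higher members and for 3 of the 10 lower ones (Mmp24, Fgfr1 and Spon1). Among all called genes, 297 of 639 higher and 257 of 548 lower ones passed this limit. These were 2.29% and 1.98% of the tested genes. The smallest p that the authors deposited, 5e-05, was shared by 11 members, 8 higher and 3 lower, beside 348 of all 1187 called genes. Igf2 came closest to the limit, with a q of 0.0490 in the authors' deposited table, followed by Mmp15 at 0.0390 and Vegfb at 0.0361. Genes just outside the limit are not analysed here.

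**Figure D2:**
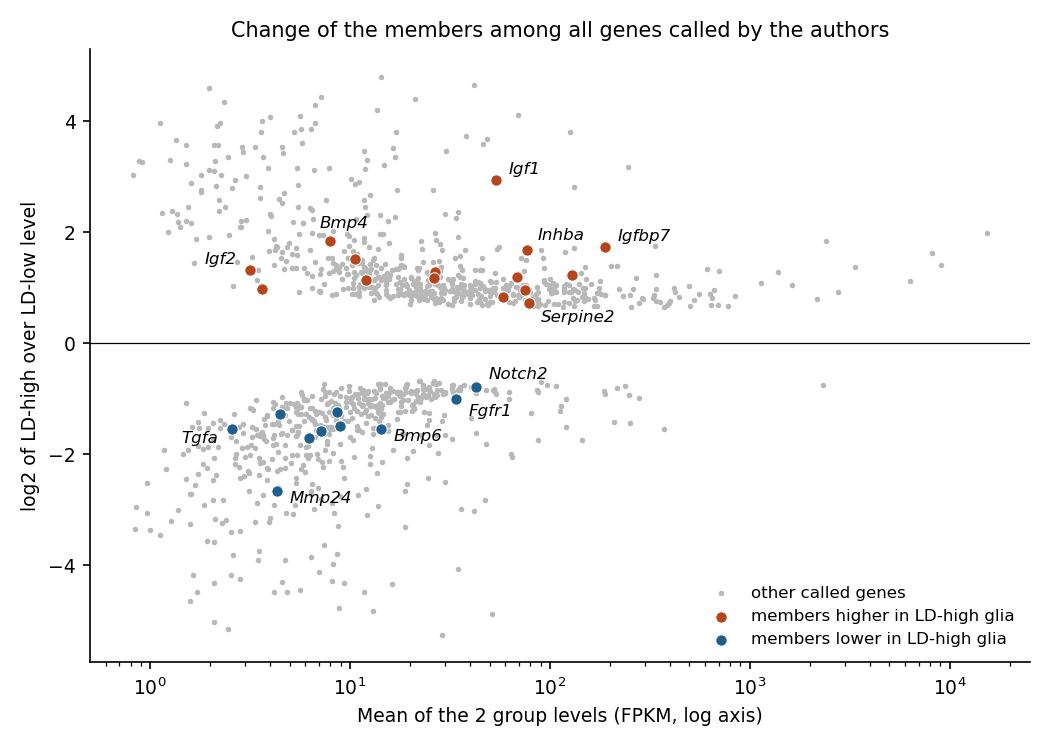
log2 of LD-high over LD-low level against the mean of both group levels (FPKM, log axis) for called genes above 0 in both groups, with the members in colour. Igf1 (2.94) and Mmp24 (-2.66) are the members with the largest changes, and both lie inside the range of the other called genes.

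In the TGF-beta superfamily, 5 members were higher and 1 was lower. By name, 7 of 38 listed symbols of this family were called (18.4%, with Tgfa counted), beside 9.14% of all tested genes. The share was 25% in the smaller IGF list, and such shares were not compared by a test. Among the ligands, Inhba, which encodes the subunit of activin A, was at 117 FPKM in LD-high and 36.5 FPKM in LD-low glia, a log2 change of 1.68. Tgfb2, a TGF-beta isoform that neurons and glia make, was at 95.3 FPKM in LD-high and 41.5 FPKM in LD-low glia (log2 change 1.20). Bmp2 was at 15.8 and Bmp4 at 12.4 FPKM in LD-high glia, against 5.50 and 3.44 FPKM in LD-low glia, with log2 changes of 1.52 and 1.85. BMP2 and BMP4 are close relatives that favour the astrocyte fate in neural precursors. All 4 of these ligands were higher, with q of 0.00556 for Bmp4 and 0.00187 for the others by the authors' deposited table.

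Bmp6, a BMP of another subgroup, went the other way, at 7.30 FPKM in LD-high and 21.2 FPKM in LD-low glia (log2 change -1.54, and by the authors' deposited table q = 0.0179). Of the level summed over Bmp2, Bmp4 and Bmp6, Bmp6 made up 20.6% in LD-high and 70.4% in LD-low glia. The sum itself was 35.5 FPKM in LD-high and 30.2 FPKM in LD-low glia. As all 3 were chosen as called genes, 2 higher and 1 lower, a shift in their shares follows from the choice. BMPs that were not called are missing from the sum. Bmp2 had the highest level of the 3 in LD-high glia and Bmp6 in LD-low glia. This ordering rests on 1 value per group and has no replicate check.

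Of the type I and type II receptors listed, Tgfbr1, the type I receptor for TGF-beta, was the 1 called, at 36.7 FPKM in LD-high and 16.3 FPKM in LD-low glia (log2 change 1.17, and by the authors' deposited table q = 0.00187). Bmpr1a, Bmpr1b, Bmpr2, Tgfbr2 and Tgfbr3 were not among the called genes. Of 26 symbols for SMADs, activin receptors, antagonists and targets, 3 were called. Eng, which encodes the co-receptor endoglin, was at 14.2 FPKM in LD-high and 4.47 FPKM in LD-low glia, and Grem1, a secreted BMP antagonist, at 26.4 FPKM in LD-high and 14.4 FPKM in LD-low glia. Ski, a repressor of SMAD signalling, was lower, at 12.9 FPKM in LD-high and 24.1 FPKM in LD-low glia. The Smad and Id genes of the list were not among the called genes.

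Bmp4 (ENSRNOG00000009694) lies at chromosome 15, 20776054 to 20822740, and Inhba (ENSRNOG00000014320) at chromosome 17, 51898217 to 51912496, in the rn6 build of the files. The q of Bmp4 was 0.00556 and that of Inhba 0.00187 in the authors' deposited table. Promoter windows from RefSeq (build GRCr8, 250 bases before to 50 after the gene's start) were matched for 21 of the 25 members, 13 higher and 8 lower, and Fgfr1, Spon1 and Bmp2 were among those with no entry by symbol. Inhba and Bmp4 are shown because they are the TGF-beta superfamily ligands with the largest changes, Igf1 and Mmp24 because they changed most in each direction. Capitals mark CAGACA or its reverse complement (the CAGA box, letters to which SMAD3 and SMAD4 bind), GGCGCC (a GC-rich SMAD motif) and TATAAA (the TATA box). The windows are chr17:53804459-53804758, minus strand (Inhba), chr15:22101884-22102183, minus strand (Bmp4), chr7:24172282-24172581, plus strand (Igf1) and chr3:164738976-164739275, plus strand (Mmp24), each written 5′ to 3′ along the gene.
Inhba: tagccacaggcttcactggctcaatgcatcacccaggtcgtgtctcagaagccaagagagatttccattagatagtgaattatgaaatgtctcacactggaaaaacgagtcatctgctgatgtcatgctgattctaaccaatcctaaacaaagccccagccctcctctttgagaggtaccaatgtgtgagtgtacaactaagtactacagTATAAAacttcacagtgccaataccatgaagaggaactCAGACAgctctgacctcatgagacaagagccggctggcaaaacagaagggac
Bmp4: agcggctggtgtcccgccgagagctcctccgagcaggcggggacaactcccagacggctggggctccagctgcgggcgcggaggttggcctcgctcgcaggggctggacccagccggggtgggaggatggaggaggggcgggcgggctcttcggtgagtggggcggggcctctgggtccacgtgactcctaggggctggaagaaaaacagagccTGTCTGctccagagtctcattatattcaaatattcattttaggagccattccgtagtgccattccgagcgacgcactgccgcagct
Igf1: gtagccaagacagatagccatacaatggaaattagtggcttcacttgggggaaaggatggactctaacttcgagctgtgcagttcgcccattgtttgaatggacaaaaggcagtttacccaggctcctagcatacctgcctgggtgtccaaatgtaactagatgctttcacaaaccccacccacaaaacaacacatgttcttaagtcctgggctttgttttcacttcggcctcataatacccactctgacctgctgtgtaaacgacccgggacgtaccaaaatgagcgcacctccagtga
Mmp24: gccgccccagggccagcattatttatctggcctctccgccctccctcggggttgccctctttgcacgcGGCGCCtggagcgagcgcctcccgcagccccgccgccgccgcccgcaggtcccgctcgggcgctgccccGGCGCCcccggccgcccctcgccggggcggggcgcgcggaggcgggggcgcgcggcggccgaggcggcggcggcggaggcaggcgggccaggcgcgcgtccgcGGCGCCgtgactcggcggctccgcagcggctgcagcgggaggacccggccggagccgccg

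In the Inhba window TATAAA starts 40 bases and CAGACA 2 bases before the start, and in that of Bmp4 the reverse complement TGTCTG starts 36 bases before it. The Mmp24 window holds GGCGCC at 182, 113 and 10 bases before the start, and that of Igf1 holds none of the motifs searched. On either strand CAGACA was present in 4 of 13 higher and 1 of 8 lower members with a window, beside 18.1% of 839 called genes and 20.8% of 27457 genes with a window. GGCGCC was present in 3 of 13 higher and 2 of 8 lower members, beside 22.3% of called genes and 11.8% of all. TATAAA was present in Inhba alone among the members, beside 6.79% of called genes and 14.3% of all. TGACTCA or TGAGTCA (AP-1), TGACGTCA (CRE) and CTTTGAT (TCF/LEF) were in 0 member windows, beside 4.53%, 1.91% and 3.62% of all, and GTGGGAA (RBPJ) was in that of Igfbpl1 alone, beside 6.19% of all. These matches describe letters in a window of 300 bases and say nothing of binding. The median GC content of the windows was 61.3% for higher and 68.2% for lower members, and 61.7% for called genes.

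In the IGF axis, Igf1 showed the largest increase of all members. Igf1, the ligand of the IGF1 receptor and in the brain a product of microglia, neurons and astrocytes, was at 95.8 FPKM in LD-high and 12.5 FPKM in LD-low glia. It was 7.69-fold higher (log2 change 2.94, and by the authors' deposited table q = 0.00187) and ranked 63 of the 633 higher genes that had a level above 0 in both groups. Igfbp7, a secreted protein that binds IGFs weakly and is found in vessel walls, was at 289 FPKM in LD-high and 87.3 FPKM in LD-low glia (log2 change 1.73, and by the authors' deposited table q = 0.00187). It had the highest level of all members in both groups. Igf2, the fetal IGF ligand, was at 4.53 FPKM in LD-high and 1.82 FPKM in LD-low glia (log2 change 1.32), the lowest member level in LD-low glia. The level of Igf1 was 21.1 times that of Igf2 in LD-high and 6.85 times in LD-low glia.

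Igfbpl1, an IGFBP-like secreted protein, was the 1 lower gene of this axis, at 4.68 FPKM in LD-high and 13.1 FPKM in LD-low glia (log2 change -1.49, and by the authors' deposited table q = 0.0316). The receptors Igf1r and Igf2r and the classical binding proteins Igfbp1 to Igfbp6 were not among the called genes, so that 4 of 16 listed symbols were called (the 16 include the mRNA-binding Igf2bp genes, which the name pattern takes in). Igf1 (ENSRNOG00000004517) lies at chromosome 7, 28412198 to 28486609, and Igfbp7 (ENSRNOG00000002050) at chromosome 14, 33010300 to 33107776, in rn6. In RefSeq the gene Polr2b overlaps Igfbp7, and LOC102548568 overlaps Igf2. Genes that do not code for protein overlap other members too, among them Bmp4, Fgfr1, Serpinb9, Spon1 and Tgfb2. Without strand, reads from exon stretches that a pair shares cannot be told apart. Whether exons overlap was not checked, and the strand setting is not given in the sources used here.

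Of the serpins 4 were called, all higher, and 3 of them are described. Serpine2, protease nexin-1, a glial inhibitor of thrombin and of plasminogen activators, was at 97.8 FPKM in LD-high and 59.3 FPKM in LD-low glia (log2 change 0.72), the smallest change of all members. Serpinf1, the neurotrophic and anti-angiogenic serpin PEDF, which does not inhibit proteases, was at 99.4 FPKM in LD-high and 51.2 FPKM in LD-low glia (log2 change 0.96). Serpinb9, an intracellular inhibitor of the cytotoxic protease granzyme B, was at 37.8 FPKM in LD-high and 15.5 FPKM in LD-low glia (log2 change 1.28).

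The q of Serpinb9 was 0.00187 and that of Serpine2 0.0343 in the authors' deposited table. Serpinb9 (ENSRNOG00000033772) lies at chromosome 17, 32650441 to 32661865, in rn6. The plasminogen activators, Plat and Plau, and the receptor Plaur were not among the called genes. None of the 4 TIMP symbols was called either.

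Called proteases numbered 3, each at 7.46 FPKM or less in both groups. The levels of proteases that were not called are not known. Both called matrix metalloproteinases belong to the membrane-bound type and both were lower. Mmp24, MT5-MMP, which is found mainly in the nervous system, was at 1.18 FPKM in LD-high and 7.46 FPKM in LD-low glia. It was 6.31-fold lower (log2 change -2.66, and by the authors' deposited table q = 0.00187), the largest decrease among the members, and it ranked 76 of the 528 lower genes that had a level above 0 in both groups. Mmp15, MT2-MMP, was at 2.62 FPKM in LD-high and 6.32 FPKM in LD-low glia (log2 change -1.27, and by the authors' deposited table q = 0.0390). The secreted Adamts12, a protease that cuts cartilage matrix protein, was higher, at 4.81 FPKM in LD-high and 2.45 FPKM in LD-low glia (log2 change 0.97, and by the authors' deposited table q = 0.0338).

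Mmp24 (ENSRNOG00000047028) lies at chromosome 3, 151310598 to 151355401, Mmp15 (ENSRNOG00000012622) at chromosome 19, 10079765 to 10101451, and Adamts12 (ENSRNOG00000018865) at chromosome 2, 61039053 to 61340697, in rn6. In RefSeq the gene Mmp24os overlaps Mmp24. If their exons overlap, which was not checked, the level of Mmp24 is uncertain without strand. Of 21 listed metalloproteinase symbols 2 were called (9.52%) and of 40 ADAM and ADAMTS symbols 1 (2.5%), beside 9.14% of all tested genes. The gelatinases Mmp2 and Mmp9 and the membrane-type Mmp14 were not among the called genes.

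Of the matrix glycoproteins, Lamb1 and Fbln5 were higher and Spon1 was lower. Lamb1, the beta chain of the common laminins of basement membranes, was at 16.7 FPKM in LD-high and 7.55 FPKM in LD-low glia (log2 change 1.14, and by the authors' deposited table q = 0.00332). Fbln5, a fibulin that joins elastic fibres to cells, was at 75.1 FPKM in LD-high and 42.1 FPKM in LD-low glia (log2 change 0.83, and by the authors' deposited table q = 0.00937). Spon1, F-spondin, a floor plate protein that guides axons, was at 3.60 FPKM in LD-high and 10.8 FPKM in LD-low glia (log2 change -1.58, and by the authors' deposited table q = 0.00187). Lamb1 (ENSRNOG00000005678) lies at chromosome 6, 50528823 to 50596079, Fbln5 (ENSRNOG00000050539) at chromosome 6, 125644804 to 125723944, and Spon1 (ENSRNOG00000058003) at chromosome 1, 178636544 to 178935051, in rn6.

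Among the called genes of the neighbouring lists were 3 that are known to work with laminins, though Lamb1 was the only 1 of 11 laminin symbols called. Nid1, nidogen-1, which links laminin to collagen IV, was at 201 FPKM in LD-high and 83.8 FPKM in LD-low glia. Itga6 and Itgb1, the subunits of a laminin receptor, were at 50.9 and 373 FPKM in LD-high glia, against 29.0 and 214 FPKM in LD-low glia. The other called integrin subunits were Itga4, Itga8, Itga11 and Itgad, with log2 changes from 0.88 to 2.10. In all, 6 of 26 integrin symbols were called (23.1%), all higher. Among all tested genes 9.14% were called, 4.92% as higher, and the shares were not compared by a test. Itga4 and Itgad are subunits that leukocytes carry.

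Of 39 symbols for other matrix proteins, 8 were called (20.5%, beside 9.14% of all tested genes), 6 higher and 2 lower. Bgn, the small proteoglycan biglycan, was at 1969.7 FPKM in LD-high and 810.3 FPKM in LD-low glia. Ctgf, a matricellular protein and known target of TGF-beta, was at 878 FPKM in LD-high and 453 FPKM in LD-low glia, and its relatives Nov and Wisp1 had log2 changes of 1.41 and 1.53. Ogn, osteoglycin, is listed at 2 loci of the same name, both higher, and its level is uncertain. The 2 lower genes were Tnr, tenascin-R, an oligodendrocyte and interneuron matrix protein (1.96 FPKM in LD-high and 11.9 FPKM in LD-low glia), and Reln, the neuronal guidance protein reelin (0.438 FPKM in LD-high and 3.30 FPKM in LD-low glia). The authors' deposited table of GO terms for higher genes gives extracellular matrix organization a Bonferroni-corrected p of 0.000421, and no term of that name stands in their table for lower genes. Per its header, that PANTHER test set the higher genes against all genes of its database, not against the genes tested here.

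The remaining growth factors and receptors were all lower. They are a leftover group, since the higher growth factors and the higher receptor Tgfbr1 stand in the IGF and TGF-beta groups. Their shared direction depends on this grouping and is no finding. Fgfr1, the FGF receptor of neural precursors and neurons, was at 22.6 FPKM in LD-high and 45.2 FPKM in LD-low glia (log2 change -1.001, and by the authors' deposited table q = 0.00187). Fgf11, an intracellular FGF-like protein of the group that binds neuronal sodium channels, was at 2.93 FPKM in LD-high and 9.52 FPKM in LD-low glia (log2 change -1.70, and by the authors' deposited table q = 0.0117). Notch2, a Notch receptor of glia and their precursors, was at 31.3 FPKM in LD-high and 54.0 FPKM in LD-low glia (log2 change -0.79, and by the authors' deposited table q = 0.0164), the smallest decrease among the members. Tgfa, which despite its name is a ligand of the EGF receptor, was at 1.31 FPKM in LD-high and 3.82 FPKM in LD-low glia (log2 change -1.54).

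Vegfb, a ligand of the VEGF receptor FLT1, was at 5.15 FPKM in LD-high and 12.1 FPKM in LD-low glia (log2 change -1.23, and by the authors' deposited table q = 0.0361). Flt1 itself was higher, at 8.53 FPKM in LD-high and 3.32 FPKM in LD-low glia. Fgf11 (ENSRNOG00000014882) lies at chromosome 10, 56403256 to 56409017, Fgfr1 (ENSRNOG00000016050) at chromosome 16, 71266248 to 71319449, Vegfb (ENSRNOG00000021156) at chromosome 1, 222239022 to 222242644, and Notch2 (ENSRNOG00000018835) at chromosome 2, 200187184 to 200317621, in rn6. Of 24 symbols for Notch mediators and targets 1 was called. This was Numbl, a relative of the Notch inhibitor Numb, at 12.5 FPKM in LD-high and 23.1 FPKM in LD-low glia. The Notch targets Hes1, Hes5, Hey1, Hey2 and Heyl were not among the called genes.

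Sorted by where the protein resides, as textbook knowledge gives it and with the values already known, 13 secreted members were higher and 4 lower (Bmp6, Igfbpl1, Spon1 and Vegfb). Of the 6 members held in the membrane, Tgfbr1 was higher and Fgfr1, Notch2, Mmp15, Mmp24 and Tgfa were lower. Of the 2 intracellular ones, Serpinb9 was higher and Fgf11 lower. Summed levels were 1126 FPKM in LD-high and 486 FPKM in LD-low glia for secreted members (ratio 2.32), and 95.6 FPKM in LD-high and 133 FPKM in LD-low glia for membrane members (ratio 0.719). Without Igfbp7, the most abundant secreted member, the ratio was 2.10, and without Tgfbr1 the membrane ratio was 0.505. As Tgfbr1 was the only higher membrane member, leaving it out could only lower that ratio. This sorting was made after the values were seen and was not tested.

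Read against whole families, the share of called genes lay near that of all genes. Written out as gene symbols, the same families hold 288 names in 16 groups, of which 25 (8.68%) were called, 5.21% as higher and 3.47% as lower, near the shares of all tested genes given above. The symbols include genes that these cultures may not express and that the authors may not have tested, so these shares are not on the same footing. No difference between groups was tested. Calls were made in 7 of 38 TGF-beta, BMP, GDF and activin symbols (Tgfa is counted there by name), 4 of 23 serpins and 4 of 16 symbols of the IGF axis, but in 0 of 37 WNT, Frizzled and WNT inhibitor symbols and 0 of 33 symbols for WNT co-receptors, mediators and targets.

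**Figure D3:**
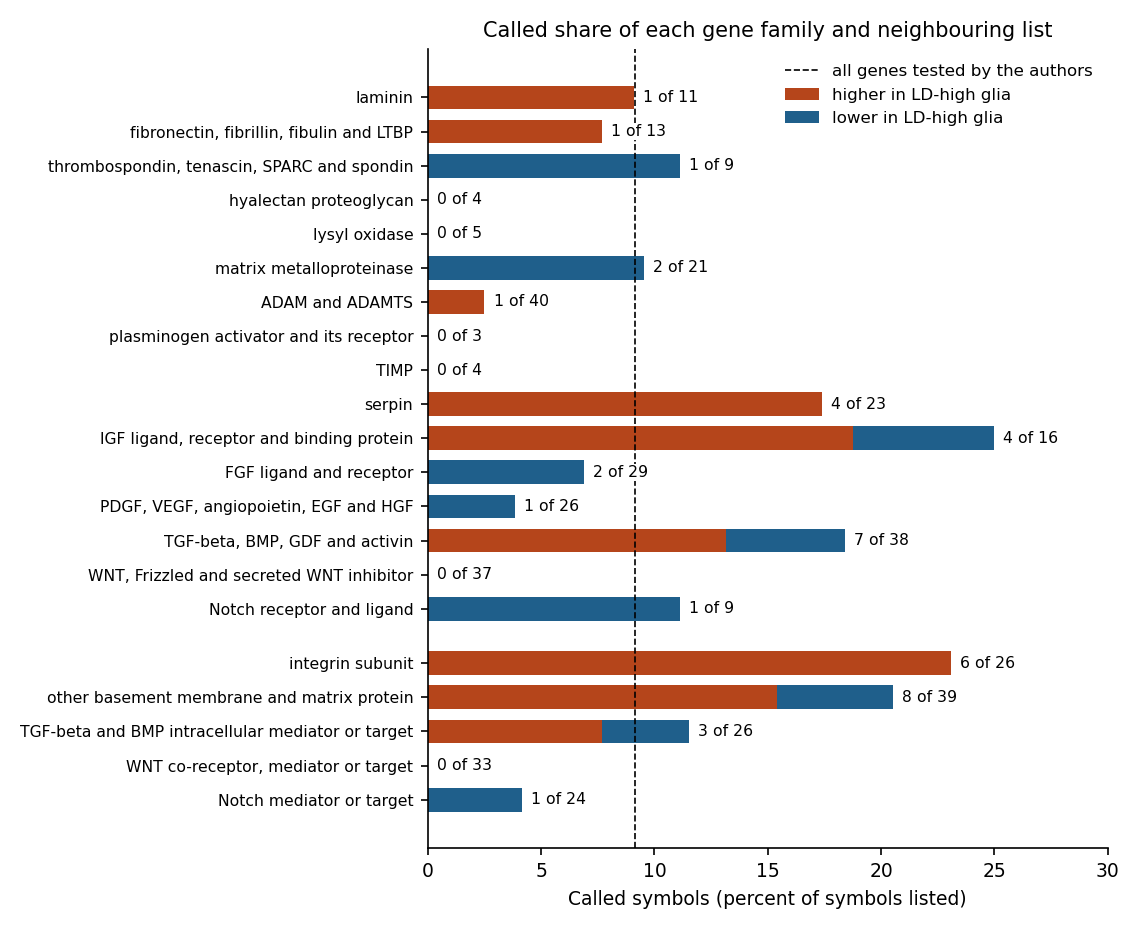
Share of listed symbols that the authors called, as a percent of the symbols of each family (upper rows) and each neighbouring list (lower rows), split by direction. The dashed line is the share among all tested genes (9.14%), and the counts beside the bars show how small most groups are.

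Also without a called gene were the 4 hyalectan proteoglycans (aggrecan, brevican, neurocan and versican), the 5 lysyl oxidases that crosslink matrix, and the 3 symbols of the plasminogen activator group. Laminins had 1 of 11, the group of fibronectin, fibrillins, fibulins and LTBPs 1 of 13, thrombospondins with tenascin-C, SPARC and spondins 1 of 9, and the FGF group 2 of 29. Of 26 symbols for PDGF, VEGF, angiopoietin, EGF and HGF 1 was called, and of 9 for Notch 1. The neighbouring lists together had 18 of 148 symbols called (12.2%), 14 higher and 4 lower. Fbln7, which stands both in a family and in a neighbouring list, was not called.

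Markers of other cell types differed between the same groups. Of 24 microglia and macrophage markers 15 were called (among them Aif1, Csf1r and Tyrobp) and all were higher, with a summed level of 587 FPKM in LD-high and 55.6 FPKM in LD-low glia. Of 26 fibroblast, meningeal and mural markers 7 were called, such as Col1a1 and Rgs5, all higher (234 FPKM in LD-high and 74.8 FPKM in LD-low glia). Of 16 endothelial markers 3 were called (Flt1, Esam and Eng), all higher (41.0 FPKM in LD-high and 13.0 FPKM in LD-low glia). Flt1 and Eng are the same genes that are described above as a receptor and a co-receptor. Of 24 neuron markers 13 were called, such as Dcx and Tubb3, and all were lower, at 191 FPKM in LD-high and 721 FPKM in LD-low glia. Of 21 astrocyte markers 3 were called (Acsbg1, Slc4a4 and Slc39a12), all higher (87.6 FPKM in LD-high and 49.0 FPKM in LD-low glia), and of 16 markers of the oligodendrocyte lineage 2 (Pdgfra and Bcas1), both lower (4.39 FPKM in LD-high and 25.9 FPKM in LD-low glia). No called marker was listed at 0. The median log2 change was 3.37 for the myeloid, 1.91 for the fibroblast, meningeal and mural, 1.66 for the endothelial, 0.80 for the astrocyte, -3.62 for the neuron and -2.48 for the oligodendrocyte lineage markers.

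The 15 higher members had log2 changes from 0.72 to 2.94. They had the direction of the called myeloid, fibroblast, mural, endothelial and astrocyte markers. The 10 lower members had that of the neuron and oligodendrocyte lineage markers. As all called markers of a list went the same way, every called gene shares its direction with some lists. The shared direction is therefore no finding about the members. The part that these cell types have in the members' levels was not tested. The log2 changes of the called myeloid markers ran from 1.96 to 4.41, a range that held 1 member, Igf1. Those of the fibroblast, meningeal and mural markers ran from 1.46 to 3.29 and held 5 members, Igf1, Bmp4, Igfbp7, Inhba and Bmp2. The endothelial range, 1.36 to 1.83, held 3 (Igfbp7, Inhba and Bmp2), and the astrocyte range, 0.78 to 0.95, held 1 (Fbln5). Of the lower members 9 lay inside the neuron range of -5.25 to -0.84, and Notch2 at -0.79 lay just outside it. That range is nearly the range of all called lower genes, -5.25 to -0.68, so lying inside it does not set a member apart. The median log2 change was -1.51 over the lower members and -3.62 over the called neuron markers. The oligodendrocyte lineage range, -2.62 to -2.34, held 0 members.

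**Figure D4:**
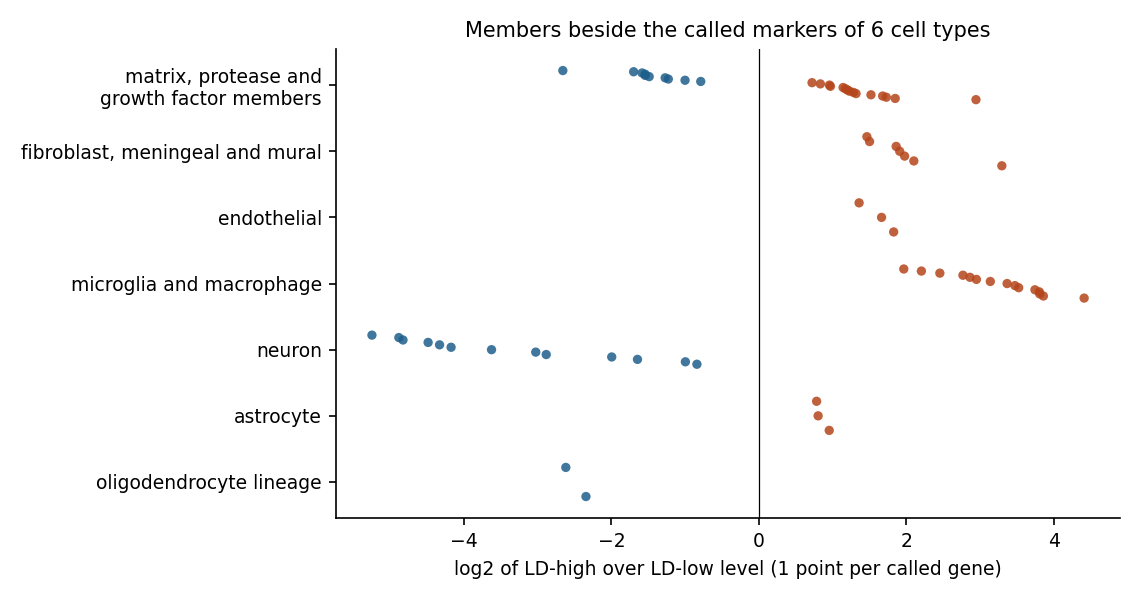
log2 of LD-high over LD-low level for the 25 members and for the called markers of 6 cell types, 1 point per called gene. The microglia and macrophage markers (1.96 to 4.41) lie further to the right than 14 of the 15 higher members, and the neuron markers (-5.25 to -0.84) reach further to the left than any member.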

How the data were processed

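RNA was sequenced from 4 LD-high and 4 LD-low samples, grouped by their titles. Per the labels' protocols, cDNA was amplified with an Ovation kit before library construction, and each level includes that step. Per the submitters' processing notes the tools were Bowtie2 and Cuffdiff and the build rn6; for versions, annotation, strand setting and filters the sources used here name none. The authors deposited 2 sheets of called genes with 1 level per group. The header names no unit, and these levels are taken as FPKM, as the authors made them with Cuffdiff from all samples of a group. The deposited log2 change differed from the log2 of the 2 levels, used here, by at most 1.15e-05. The p-value and the q-value are the authors', and so are the p-values of the GO sheets (per the file headers, a PANTHER test with Bonferroni correction). The number of columns of single samples was 0, so no test between samples, no interval and no depth could be given.

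The number of tested genes, 12981, was recovered as q times rank over p at 91 distinct p values, a step tested on simulated data. Starts were raised by 1, since Cuffdiff counts from 0. Of the 25 members 24 are named with both levels, 1 is counted but not reported here, and up to 2 per family also with q, identifier and locus. Members, gene lists and markers were chosen with earlier results of these data known. The alternatives were other limits on q, change and level, a pseudocount of 1, a shift of scale and matching without regard to case. Scripts ran in Python 3.11.15 with matplotlib 3.10.9.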

Additional observations from a re-analysis of the deposited data

How the results depend on the processing

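One alternative added a pseudocount of 1 FPKM to both levels, which cannot turn a direction. Another subtracted from each log2 change the midpoint, -0.01, between the least changed called genes of each direction (0.66 and -0.68), which is too small to turn a member, the smallest change being 0.72. At q below 0.01 the lower members numbered 3 in place of 10, and 15 of the 25 remained called; the higher ones numbered 12. The called genes of the neighbouring lists then numbered 8 higher and 2 lower, and with a log2 change of at least 1 they numbered 9 higher and 2 lower, in place of 14 and 4. These limits on the neighbouring lists were added after the data were seen. The median log2 change of the higher members was 1.25 at q below 0.01, 1.32 with a change of at least 1, 1.24 after the shift and 1.18 with the pseudocount. That of the lower members was -1.58 at q below 0.01, -1.54 with a change of at least 1, -1.49 with a level of at least 5 FPKM in the higher group, -1.50 after the shift and -1.20 with the pseudocount. Leaving out a replicate was not possible without values per sample. The depth that limits each level is unknown. No paired analysis was possible because the deposited tables hold 1 level per group and no values of single samples.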
